A study of Erysimum cheiri and Matthiola incana and Raphanus sativus with 44 samples.

Results

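The 8 genes described here are classic plant defence genes: osmotin 34 (OSM34, AT4G11650), PR1 (AT2G14610), PR2 (AT3G57260), PR4 (AT3G04720), PR5 (AT1G75040), the basic chitinase (CHI-B, AT3G12500) and the plant defensins PDF1.1 (AT1G75830) and PDF1.2A (AT5G44420). They were taken by locus from the expression tables, 8 of 34133 Arabidopsis thaliana loci, and all 8 loci were found in the table of each species. The choice was made with the FPKM values of these same libraries in view, so the levels below and the differences between forms are a description, and the adjusted p-values are given as output of the fit over all loci. Gene names and roles are background knowledge for Arabidopsis, since the tables hold locus identifiers alone.

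Pathogenesis-related (PR) proteins accumulate in plant tissue after infection and, for several of them, during stress or organ development. In Arabidopsis, PR1, PR2 and PR5 are the usual markers of the salicylic acid response, in which the transcription factor SARD1 and the enzyme PBS3 act upstream. The class 1 defensins PDF1.2A and its relatives, the basic chitinase and PR4 are usual markers of the joint jasmonate and ethylene response. Flowers and seeds are known to make defensins without infection.

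Petals of half-open flowers came from greenhouse plants of 10 Brassicaceae species, in 22 forms with 2 libraries each. No plant in the labels was infected, mutant or treated. The forms, by their codes and labelled flower colours, were Matthiola incana LP (modena), DP (lavender), RB (pink) and W (white), Orychophragmus violaceus P (violet) and W (white-violet), Lobularia maritima P (violet) and W (white), Malcolmia maritima P (white-violet) and LP (violet), Iberis amara PI (violet) and P (pink), Erysimum cheiri P (yellow), O (pink), Y (yellow) and B (orange), Raphanus sativus DP (violet), LP (white-violet) and W (violet), Aubrieta cultorum PI (pink), Eruca sativa Y (brownness) and Brassica oleracea Y (yellow). Several colour labels are at odds with the codes, and the organism labels of Eruca Y and Erysimum Y are exchanged, so forms are called by the codes in the sample titles. For Erysimum form P the table's columns read PI, and they were matched to P by elimination, which is an inference. The series calls the libraries of a form biological replicates without saying that they came from separate plants, so p-values measure the spread between these libraries, which may be technical.

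The values are FPKM (fragments scaled to locus length and library size), computed by the authors with Arabidopsis as the reference for all species. The 2 Aubrieta columns are identical and were counted as 1 library, which leaves 43. Between 4910 and 14198 loci were above 0 in a library. The petal identity genes APETALA3 and PISTILLATA were above 0 in all 43 libraries, AP3 between 176 and 3979 FPKM, and none of 5 genes used in every cell was at 0. Erysimum P library 2 and Malcolmia LP libraries 1 and 2 stood apart from their partners for the defensins, Raphanus W held high levels of pollen transcripts, and the 2 Matthiola W libraries held higher levels of the 5 every-cell genes than the other Matthiola forms. Values touched by these libraries are given with that fact beside them. In whole petals, fewer cells of a type and less RNA per cell cannot be told apart.

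The 8 genes differed in how widely they were detected. PDF1.1 was above 0 in 25 of 43 libraries and 7 of 10 species, with a highest value of 2604 FPKM, and PDF1.2A in 19 libraries and 6 species, with a highest value of 228 FPKM. PR4, a chitin-binding protein, was above 0 in 18 libraries of 7 species. PR5, a thaumatin-like protein, was above 0 in 11 libraries of 3 species. Osmotin, a second thaumatin-like protein, was above 0 in 8 libraries of 4 species, and the basic chitinase in 8 libraries of 4 species. PR2, a beta-1,3-glucanase, was above 0 in 6 libraries and at most 5.22 FPKM. PR1, a secreted protein of the CAP family, was above 0 in 2 libraries, at 6.73 FPKM in Matthiola DP library 2 and 11.8 FPKM in Iberis PI library 2. All 8 genes were listed at 0 in both Brassica libraries, in both Erysimum Y libraries and in 5 of 6 Raphanus libraries, and Raphanus W library 2 held 19.2 FPKM of OSM34 and 25.4 FPKM of PR4.

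**Figure D1:**
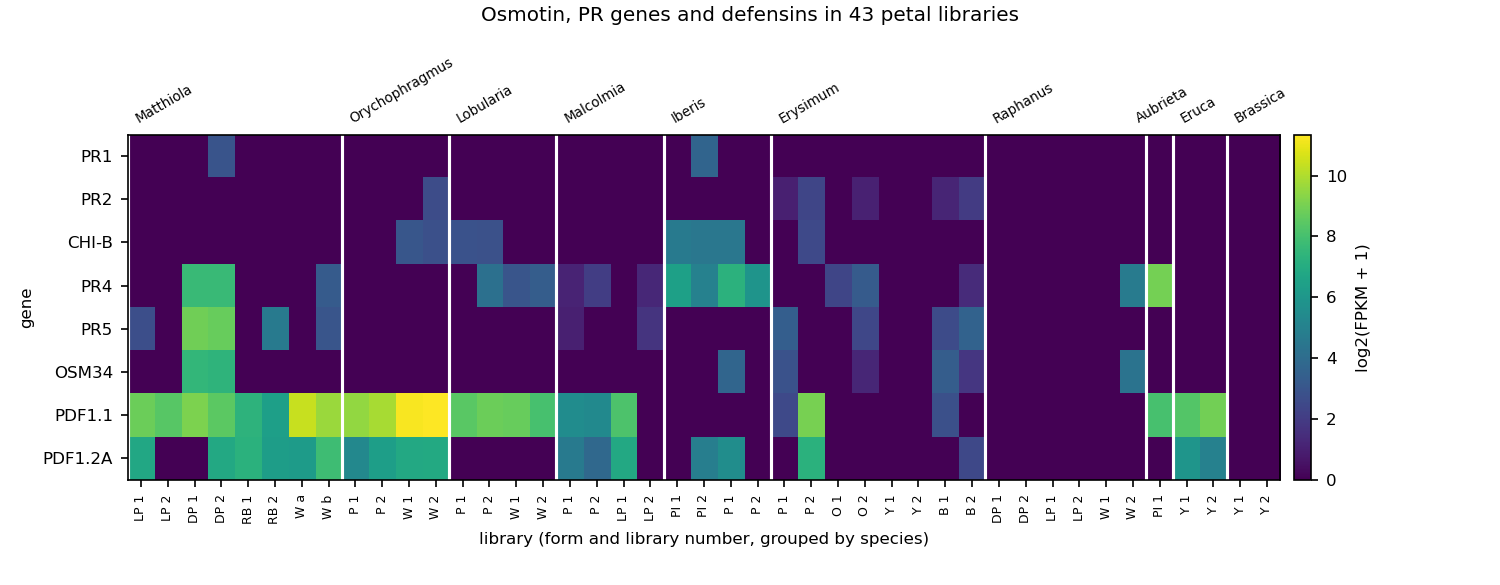
Level of the 8 genes (rows) in the 43 libraries (columns, grouped by species and form), as log2(FPKM + 1), from dark (0) to bright. OSM34, PR4 and PR5 are bright together in Matthiola DP, and PDF1.1 is the brightest row in all Orychophragmus and Lobularia libraries and in 7 of 8 Matthiola libraries, the exception being DP library 2, where PR5 is brighter.

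How far a 0 can be read depends on depth, which the tables do not give. The low FPKM values of OSM34, PR2, PR4, PR5, CHI-B and PDF1.1 lay on steps in 7 species, from which the FPKM worth of 1 read was estimated, and the estimate covers counting error only. In Raphanus W library 2, OSM34 and PR4 each came to 1 estimated read. For OSM34, 3 reads were worth 2.09 to 3.13 FPKM in the Malcolmia libraries, 9.53 to 33.6 FPKM in Matthiola and 17.5 to 58.5 FPKM in Raphanus. A listed 0 allows a level of up to about these values, although lower levels can be seen as 1 or 2 reads, so 0 in Raphanus limits OSM34 less tightly than 0 in Malcolmia does. Aubrieta, Brassica and Eruca have no steps, so their depth is unknown and their genes are described only as listed at 0.

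The clearest pattern was in Matthiola incana, garden stock. Petals of form DP held OSM34, PR4 and PR5 at 166 to 470 FPKM, where the other 3 forms were at or near 0. OSM34 was listed at 0 and 0 FPKM in LP, at 179 and 166 FPKM in DP, at 0 and 0 FPKM in RB and at 0 and 0 FPKM in W. Both DP libraries stood above all 6 other libraries, in which OSM34 was not detected. The DP values came to an estimated 23 and 35 reads, and 3 reads were worth at most 33.6 FPKM in any Matthiola library.

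PR4 followed the same order. It was listed at 0 and 0 FPKM in LP, at 206 and 203 FPKM in DP, at 0 and 0 FPKM in RB and at 0 and 8.50 FPKM in W. The DP values came to an estimated 20 and 33 reads, and the 8.50 FPKM of W library b to 2 reads. PR5 was the highest of the 3, with 5.54 and 0 FPKM in LP, 470 and 424 FPKM in DP, 0 and 23.9 FPKM in RB, and 0 and 6.90 FPKM in W. DP again did not overlap with any other form, at an estimated 56 and 83 reads against 2 or fewer in each of the other 6 libraries. Of all tested loci, 40.3% did not overlap between DP and W, 29.6% between LP and DP and 31.6% between DP and RB. The lack of overlap for OSM34, PR4 and PR5 is therefore not read as a result by itself.

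The salicylic acid marker PR1 was near the limit of detection, at 0 and 6.73 FPKM in DP and 0 in the other 6 Matthiola libraries. PR2 and the basic chitinase were listed at 0 in all 8 Matthiola libraries, at which 3 reads of PR2 were worth 7.61 to 26.8 FPKM. The DP pattern was thus measured for OSM34, PR4 and PR5, and not for the other PR genes in the list.

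**Figure D2:**
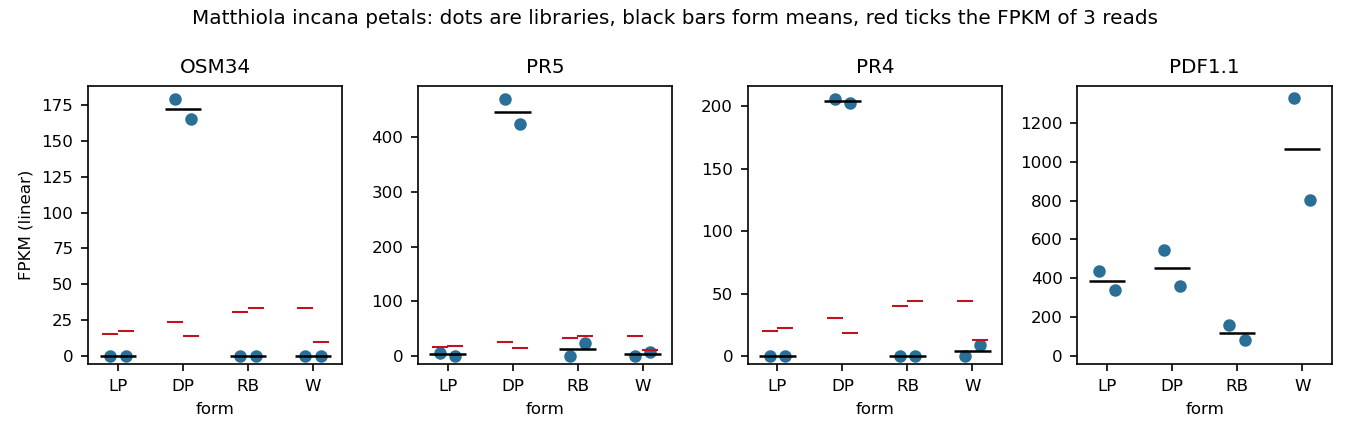
FPKM of OSM34, PR5, PR4 and PDF1.1 in the 4 forms of Matthiola incana, on linear axes that differ between panels. Dots are libraries, black bars are means of 2 libraries and red ticks give the FPKM that 3 reads are worth in that library (not drawn for PDF1.1). For OSM34, PR5 and PR4 both DP dots lie far above the other 3 forms, while PDF1.1 as deposited is highest in W and lowest in RB.

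Forms were compared with limma on log2(FPKM + 1), where a locus is called at a Benjamini-Hochberg adjusted p under 0.05 over all tested loci. Between DP and W, 2 of the 6 tested members were called, against 2.66% of all tested loci. The log2 difference was 7.44 for OSM34 (SE 0.88, limma adjusted p = 0.0133) and 6.06 for PR4 (SE 1.16, limma adjusted p = 0.0433), both higher in DP. PR5 differed by 7.31 (SE 1.67, limma adjusted p = 0.0648) and was not called, and its adjusted p ran from 0.0117 to 0.354 over the 10 alternatives, with a call in 2 of them. Where a form is listed at 0, the log2 difference depends on the 1 FPKM that is added and is no fold change. The OSM34 call held in all 10 alternatives tried. However, OSM34 met the filter of a mean of 1 FPKM through DP alone, the form where it is high. Its listed 0s in LP, RB and W add no spread to the fit, so the held call is no separate support. The PR4 call was lost in 5 of 10, among them without DP library 1, without DP library 2 and with quantile scaling.

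Between DP and RB, 2 of 6 tested members were called, against 0.84% of all tested loci: OSM34 (log2 difference 7.44, limma adjusted p = 0.0224) and PR4 (7.68, limma adjusted p = 0.037). The PR4 call was lost in 8 of 12 alternatives, among them with each of the 4 libraries of DP and RB left out in turn. OSM34 lost its call in 4 of 12 and, of the library drops, only without RB library 2. Without DP library 1, PR1, at 6.73 FPKM in DP library 2 alone, was called against RB and against W in place of PR4. Between LP and DP, 1 of 6 tested members was called, against 0.229% of all tested loci. OSM34 was lower in LP (log2 difference -7.44, limma adjusted p = 0.0275), with PR4 at -7.68 (limma adjusted p = 0.0673) and PR5 at -7.45 (limma adjusted p = 0.188). With the 2 W libraries left out of the fit, 0 of 6 members were called in both of these comparisons, at the same FPKM values. The 3 comparisons share the DP libraries, so they are not independent.

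Matthiola DP also held higher levels of 2 genes that act upstream in the salicylic acid response. Both were called in DP against W, and neither between LP and DP or between DP and RB. SARD1, a transcription factor that activates salicylic acid synthesis, stood at 2.9 and 9.60 FPKM in LP, 83.2 and 103 FPKM in DP, 28.5 and 18.8 FPKM in RB and 0 and 0 FPKM in W. Both DP libraries were above all others, and SARD1 rose in DP against W by 6.55 on the log2 scale (SE 0.72, limma adjusted p = 0.0121) and in RB against W. PBS3, which conjugates the precursor of salicylic acid, rose in DP, with 154 and 131 FPKM, against 52.6 and 31.3 FPKM in W. These were 2 of the 16 tested genes of the salicylic acid list, with none lower, against 2.66% of all tested loci called. The list's median log2 difference was 1.13, against 0 for all tested loci, and 14 of 16 differences were positive. LP against W gave a similar shift, with a median of 1.05 and 12 of 16 positive, so the shift was not particular to DP. In RB against W the median was 0.18, with 10 of 16 positive. The PBS3 call was lost in 6 of 10 alternatives, among them without either DP library and without W library b, while the SARD1 call in DP held in all 10.

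DMR6, a salicylic acid hydroxylase, was not called, with 954 and 1066 FPKM in DP and 472 and 522 FPKM in W. ICS1, the isochorismate synthase of salicylic acid production, was low in both forms, at 14.0 and 14.9 FPKM in DP and 10.1 and 2.85 FPKM in W. NPR1, a salicylic acid receptor, was listed at 0 in all 8 Matthiola libraries. P5CS1, which makes the osmolyte proline and belongs to the water deficit list, rose in DP with 250 and 269 FPKM, against 56.5 and 38.7 FPKM in W and against 52.4 and 38.6 FPKM in RB. It was 1 of 6 tested genes of that list, beside 2.66% (DP against W) and 0.84% (DP against RB) of all tested loci called. Its call against RB was lost without either RB library. In LP it stood at 82.2 and 82.6 FPKM.

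The other defence lists showed no call between DP and W. None passed among 2 tested genes of the PR1 family, 2 of the beta-1,3-glucanases, 9 chitinases, 4 thaumatin-like genes, 5 defensins and thionins and 7 jasmonate and ethylene regulators. The 4 tested thaumatin-like genes were all positive, with a median of 2.02, and 7 of 9 chitinases were positive, with a median of 1.1, both beside 0 for all tested loci. In LP against W, 3 of the 4 thaumatin-like genes (median 1.01) and 6 of the 9 chitinases (median 0) were positive. In RB against W, 1 of 4 (median -1.29) and 5 of 9 (median 0) were.

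**Figure D3:**
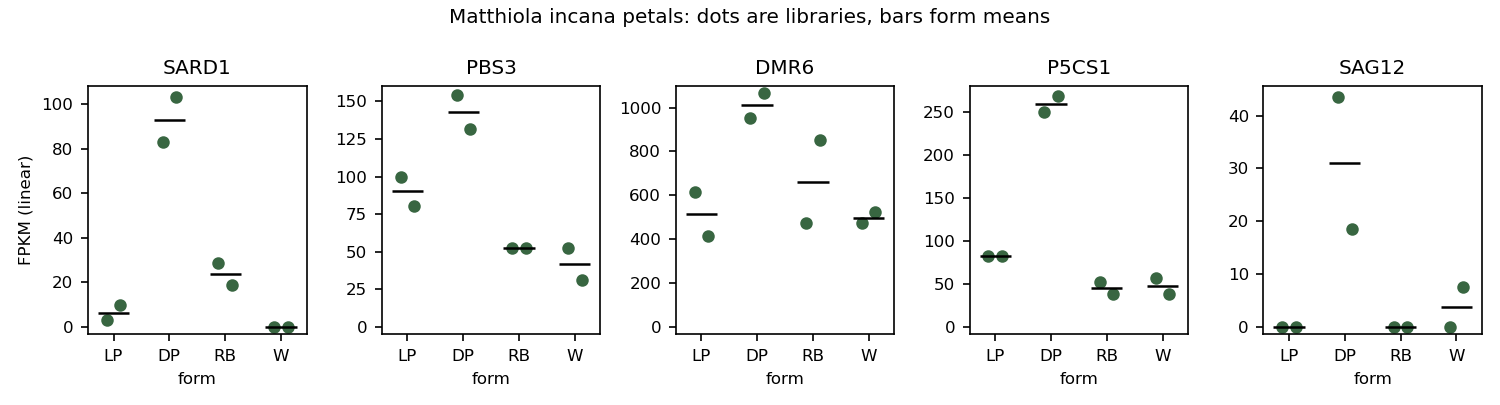
FPKM of SARD1, PBS3, DMR6, P5CS1 and the senescence gene SAG12 in the 4 forms of Matthiola incana, on linear axes that differ between panels. Dots are libraries and bars are means of 2 libraries. Both DP dots lie above those of the other forms in all 5 panels.

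Other transcripts that moved with DP were looked at beside these genes. SAG12, a cysteine protease of late senescence, stood at 0 and 0 FPKM in LP, 43.4 and 18.5 FPKM in DP, 0 and 0 FPKM in RB and 0 and 7.61 FPKM in W. The summed level of the 7 senescence genes was 174 and 126 FPKM in DP and 17.2 to 94.9 FPKM in the other 6 libraries, and none of the 7 was called in DP against W. Its part in the result was not tested. All 4 pollen markers were at 0 in both DP libraries. Of the 4 carpel markers, 3 were at 0 in each DP library, and their sum was 6.66 and 3.96 FPKM. The every-cell genes were lower in DP than in W, 3 of 5 by the test, against 2.66% of all tested loci. Their median log2 difference was -1.27. The part of the pollen, carpel and every-cell genes in the DP levels was not tested.

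Outside Matthiola, osmotin was listed at no more than 19.2 FPKM, the value of Raphanus W library 2, at 1 estimated read. It was listed at 0 in Aubrieta, Brassica and Eruca, where depth is unknown. In Erysimum cheiri, wallflower, it stood at 6.33 and 0 FPKM in P, 0 and 1.32 FPKM in O, 0 and 0 FPKM in Y and 9.25 and 2.49 FPKM in B. The highest of these came to 6 estimated reads, and P overlapped with both O and B, while O lay below B. Of all tested loci, 36.1% did not overlap between O and B. PR5 had the same order of form means there, with 9.54 and 0 FPKM in P, 0 and 4.26 FPKM in O, 0 and 0 FPKM in Y and 4.98 and 10.7 FPKM in B. In P library 2, 3 reads were worth 15.6 FPKM of OSM34 and 16.7 FPKM of PR5. These floors lie above every Erysimum value of both genes, so the place of P in the order is not resolved. The single Iberis library with OSM34, P library 1, held 11.8 FPKM, or 1 estimated read.

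Over the 19 forms of the 7 species with several forms, the form means of log2(FPKM + 1), centred within species, had a Pearson r with OSM34 of 0.941 for PR5 and 0.865 for PR4. It was 0.507 for PR1, 0.202 for PR2, 0.138 for PDF1.1, -0.07 for the basic chitinase and -0.29 for PDF1.2A. Among the 9632 loci that averaged 1 FPKM or more in 10 or more of these forms, the highest were AT5G06860 (0.856) and AT2G39200 (0.843), which the tables do not name. PR5 and PR4 averaged that level in only 8 and 9 forms and so were outside this ranking. Other loci below its rule were not ranked, so the place of PR5 and PR4 among all loci is not given. AT5G06860 stood at 4.46 and 0 FPKM in Matthiola LP, 115 and 44.1 FPKM in DP, 0 and 0 FPKM in RB and 0 and 2.76 FPKM in W. Many of these points are 0, and DP carries much of each value, so the correlations describe these forms and no more.

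PR4 was the most widely detected of the PR genes. Its highest value was in Aubrieta, 502 FPKM in the single library. In Iberis amara it was detected in all 4 libraries, at 86.8 and 31.0 FPKM in PI and 158 and 58.2 FPKM in P. The ranges overlapped, the values came to 3 to 10 estimated reads, and the log2 difference was -0.87 (SE 0.77, limma adjusted p = 0.76). In Malcolmia (1.22 and 3.18 FPKM in P, 0 and 1.37 FPKM in LP), Lobularia (0 and 17.5 FPKM in P, 7.0 and 9.26 FPKM in W) and Erysimum (at most 8.71 FPKM, in O library 2), PR4 came to 5 reads or fewer a library. PR4 was listed at 0 in Orychophragmus, Eruca and Brassica.

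The basic chitinase was found at a few reads in 4 species. Iberis held the most, with 23.8 and 21.3 FPKM in PI and 21.3 and 0 FPKM in P. In Lobularia it stood at 6.32 and 6.11 FPKM in P and at 0 in both W libraries, and in Orychophragmus at 0 in both P libraries and at 7.23 and 5.92 FPKM in W. Each of these 4 values above 0 came to 1 estimated read, so the presence of the gene in 1 form and its absence in the other was not separable from counting error. Erysimum P library 2 held 4.71 FPKM, also 1 read. PR2 came to 1 to 3 reads in 6 libraries, 5 of Erysimum and 1 of Orychophragmus W.

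PDF1.1 reached the highest values of the 8 genes, although other members were higher in some libraries, PR4 in Aubrieta and Iberis and PR5 in Matthiola DP library 2 among them. It was above 0 in both libraries, or the only library, of 12 forms. The highest form means were 2503 ± 143 FPKM in Orychophragmus W, 1065 ± 370 FPKM in Matthiola W and 828 ± 152 FPKM in Orychophragmus P (SD, n = 2 libraries each), and the ranges of the last 2 overlapped. Eruca Y held 320 and 491 FPKM, Aubrieta 264 FPKM in 1 library, and Lobularia 350 and 447 FPKM in P and 416 and 261 FPKM in W. Iberis, Raphanus and Brassica were listed at 0. In Iberis, 3 reads of PDF1.1 were worth 73.7 to 129 FPKM, so the 0 of a single library there allows a level of up to about these values.

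PDF1.1, PDF1.2A, PDF1.2B, PDF1.2C and PDF1.3 are near-identical copies in Arabidopsis, so reads could be split between them and the value of each is uncertain. Their sum was therefore also taken. In Matthiola the 5 copies together held 1685 and 1309 FPKM in LP, 2449 and 2297 FPKM in DP, 956 and 856 FPKM in RB and 4985 and 4131 FPKM in W, of which PDF1.1 made up 9.64% to 26.6%. On the values as deposited, W was highest and RB lowest in the sum as in PDF1.1. In Orychophragmus the sum was 1119 and 1918 FPKM in P and 3230 and 3644 FPKM in W, and PDF1.1 made up 48.8% to 74.4%. In Lobularia the sum was 1201 and 1849 FPKM in P and 2179 and 1021 FPKM in W, with overlap.

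PDF1.2A was found beside PDF1.1 in Eruca, at 59.2 and 31.1 FPKM in Y. In Iberis, where PDF1.1 was listed at 0, PDF1.2A stood at 0 and 27.5 FPKM in PI and 46.3 and 0 FPKM in P, and the sum of the 5 copies at 125 and 79.4 FPKM in PI and 82.8 and 0 FPKM in P. Aubrieta held 811 FPKM over the 5 copies, with PDF1.2A at 0. The copy under which the values were listed thus differed between species.

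In Orychophragmus violaceus, PDF1.1 was lower in form P than in form W. It stood at 720 and 936 FPKM in P and 2402 and 2604 FPKM in W, without overlap. Of all tested loci, 45.6% did not overlap in this comparison. PDF1.1 had a log2 difference of -1.61 (SE 0.17, 95% interval -2.08 to -1.13, limma adjusted p = 0.0311). It was the 1 member called of 4 tested, against 4.94% of all tested loci. PDF1.2A stood at 38.3 and 81.6 FPKM in P and 114 and 118 FPKM in W (log2 difference -1.03, SE 0.46, limma adjusted p = 0.282). The PDF1.1 call was lost without P library 1, without W library 1 and without W library 2, when limma adjusted p-values reached up to 0.183 over the alternatives, and all differences stayed negative. Without W library 1, CHI-B and PR2 were called in its place, and without W library 2, CHI-B was, each at 1 estimated read in the W library kept.

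Pollen and senescence transcripts moved the same way in Orychophragmus. The 4 pollen markers, pectin-modifying genes of pollen, summed to 43.8 and 0 FPKM in P and 1282 and 1212 FPKM in W. None of the 3 tested was called, with a median log2 difference of -6.87, and 1 defining marker was at 0 in each W library. SAG12 fell to 0 and 0 FPKM in P, against 516 and 494 FPKM in W, and ORE1, a NAC regulator of senescence, fell to 0 and 0 FPKM in P, against 47.6 and 22.2 FPKM in W. The 7 senescence genes summed to 94.1 and 119 FPKM in P and 745 and 735 FPKM in W. The part of pollen and of senescence in the PDF1.1 difference was not tested.

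Among the other defence genes in Orychophragmus, DMR6 fell to 15.0 and 16.3 FPKM in P, against 295 and 173 FPKM in W, 1 of 15 tested genes of the salicylic acid list. Over all tested loci 4.94% were called, so this count is not read as a result about the list. Of 5 tested chitinases, AT2G43590 fell to 0 and 0 FPKM in P, against 107 and 62.8 FPKM in W, and CTL1, a chitinase-like protein of cell wall formation, rose to 517 and 660 FPKM in P, against 89.1 and 77.0 FPKM in W. The calls of DMR6, AT2G43590 and ORE1 were lost without either P library, and that of SAG12 without P library 1. CTL1 lost its call with each of the 4 libraries left out in turn. None of 6 tested defensins and thionins outside the members, 9 thaumatin-like genes or 6 jasmonate and ethylene regulators was called.

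In Matthiola, PDF1.1 was lower in RB than in W. It stood at 158 and 82.5 FPKM in RB and 1327 and 804 FPKM in W, a log2 difference of -3.16 (SE 0.39, 95% interval -4.06 to -2.26, limma adjusted p = 0.00656), and was the 1 member called of 6 tested, against 7.1% of all tested loci. The RB values came to an estimated 4 and 2 reads. The copies PDF1.3 and PDF1.2C fell with it. PDF1.3 stood at 362 and 509 FPKM in RB and 2237 and 2067 FPKM in W, and PDF1.2C at 284 and 186 FPKM in RB and 1346 and 1033 FPKM in W. These were 2 of the 5 tested genes of the defensin list outside the members, and PDF1.2C fell in LP too (223 and 190 FPKM). The calls of PDF1.2C were lost with each library of the compared forms left out in turn.

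Beside this difference, all 5 every-cell genes were lower in RB than in W, with a median log2 difference of -1.11. With each library scaled to the summed FPKM of these 5 genes, PDF1.1 remained lower in RB, at a log2 difference of -1.90 (limma adjusted p = 0.0388), and PDF1.2C was no longer called. That scaling put PDF1.1 in DP against W at 0.11, where the values as deposited gave -1.22, neither of them called. Without W library a, the PDF1.1 call of RB against W was lost, and PR4, 0 in RB and 2 reads in W library b, was called in its place. LP and DP stood between, at 439 and 338 FPKM in LP and 544 and 361 FPKM in DP, and none of the members was called between LP and W (0 of 6, against 1.33% of all tested loci) or between LP and RB (0 of 6, against 0.726%). PDF1.2A varied within forms, with 110 and 0 FPKM in LP, 0 and 116 FPKM in DP, 151 and 79.0 FPKM in RB and 75.0 and 228 FPKM in W, and no form stood apart.

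The chitinase CHIA also fell in RB, to 0 and 0 FPKM, against 50.8 and 29.3 FPKM in W, 1 of 9 tested chitinases. SARD1 went the other way, as given above, as 1 of 16 tested genes of its list. In RB against W 7.1% of all tested loci were called, so neither count is read as a result about its list. SARD1 kept its sign in all 10 alternatives and lost its call in RB without RB library 1.

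In 2 further species the 2 libraries of a form differed widely in the defensins. In Malcolmia maritima, PDF1.1 stood at 44.5 and 40.9 FPKM in P and 292 and 0 FPKM in LP, and PDF1.2A at 24.5 and 13.1 FPKM in P and 113 and 0 FPKM in LP. The 2 LP libraries lay on either side of both P libraries. LP library 1 came to 113 estimated reads of PDF1.1, while 3 reads were worth 11.6 FPKM in LP library 2, which listed all 5 class 1 copies at 0. Of the 4 tested members 0 were called, against 4.09% of all tested loci. Without LP library 2, so that LP rested on library 1 alone, the log2 difference of PDF1.1 turned to -2.75, where it was 1.35 with both LP libraries. PBS3 and TGA3, a factor that binds the salicylic acid receptor NPR1, fell in P, 2 of 11 tested genes of the salicylic acid list, PBS3 to 19.7 and 24.3 FPKM, against 131 and 106 FPKM in LP. ERF-1, an ethylene response factor, rose to 11.5 and 9.21 FPKM in P, against 0 and 0 FPKM in LP. SAG12 fell to 2.24 and 1.31 FPKM in P, against 48.2 and 16.6 FPKM in LP, and 1 of 5 every-cell genes rose. The calls of PBS3, TGA3, ERF-1 and SAG12 were lost with each of the 4 libraries left out in turn. They were also lost with a pseudocount of 0.1, no filter, quantile scaling or no variance trend. Of all tested loci 526 were called in the main fit, but only 1 or 2 under each of those settings. With the replicate block there were 891 and with every-cell scaling 2464.

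In Erysimum, form P library 2 held 517 FPKM of PDF1.1 and 152 FPKM of PDF1.2A, where P library 1 held 4.71 and 0 FPKM. The other 6 libraries held at most 5.83 FPKM of PDF1.1 and 4.55 FPKM of PDF1.2A. The value of P library 2 came to an estimated 27 reads. Of the 7 tested members 0 were called in all 6 Erysimum comparisons, where 0.0203% (Y against B), 0.0135% (O against B), 0.0203% (O against Y), 0.00676% (P against B), 0.0135% (P against O) and 0.027% (P against Y) of all tested loci were. At an unadjusted p under 0.05 there were between 386 and 1494 loci in these comparisons. With P library 1 left out, so that P rested on library 2 alone, 3 members were called against B, 3 against O and 4 against Y, beside 5228, 5081 and 5039 loci in all.

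Pollen markers were also high in Malcolmia LP library 1 and Erysimum P library 2. In Malcolmia the 4 markers summed to 3.16 and 4.17 FPKM in P and 77.8 and 14.7 FPKM in LP. The 77.8 was in LP library 1, which held the most PDF1.1. In Erysimum they summed to 341 FPKM in P library 2, against 9.14 to 45.4 FPKM in the other 7 libraries. In Raphanus the sum was 88.9 and 183 FPKM in DP, 1266 and 1362 FPKM in LP and 6155 and 6630 FPKM in W, while PDF1.1 was listed at 0 in all 6 libraries, where 3 reads were worth 65.0 to 217 FPKM. In Matthiola W, where PDF1.1 was at its highest in that species, the sum was 4.65 and 6.25 FPKM. High pollen markers were thus found with high PDF1.1 in certain libraries of 3 species and without it in Raphanus. Within Malcolmia, LP library 2 had a higher marker sum (14.7 FPKM) than both P libraries. Its PDF1.1 was listed at 0, against 44.5 and 40.9 FPKM in P. Marker sums of Lobularia, Eruca and Aubrieta, which also held PDF1.1, are not given here. The part of pollen was not tested.

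**Figure D4:**
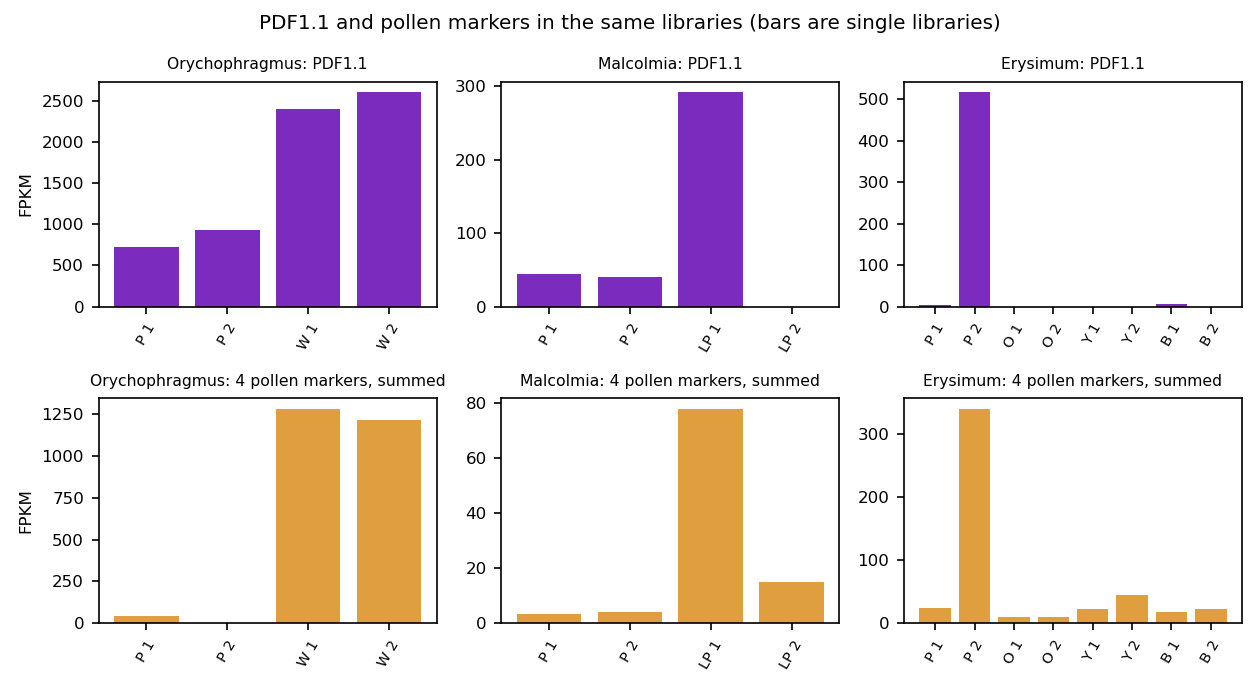
FPKM of PDF1.1 (upper row) and the summed FPKM of 4 pollen markers (lower row) in each library of Orychophragmus, Malcolmia and Erysimum, on linear axes from 0 that differ between panels. Orychophragmus W libraries 1 and 2, Malcolmia LP library 1 and Erysimum P library 2 have the tallest bars in both rows.

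The remaining comparisons gave no member call. In Raphanus 0 of 2 tested members were called between DP and W, DP and LP, or LP and W, against 10.8%, 8% and 2.56% of all tested loci. The median log2 difference of all tested loci was 0.86 in DP against W and 0.72 in DP against LP. Organelle loci held 74.3% and 4.72% of the summed FPKM in W, 25.9% and 28.1% in LP and 4.31% and 1.07% in DP. Their part in the median differences was not tested. Both members tested in Raphanus rest on W library 2, at 1 estimated read each. Their calls in DP and in LP against W without W library 1 are not read as a result. Of the listed defence genes, AT2G43590 rose to 31.6 and 22.4 FPKM in DP, against 0 in both libraries of LP and of W, 1 of 7 tested chitinases. ERD10, a dehydrin of the water deficit list, rose to 1404 and 1483 FPKM in DP, against 9.22 and 0 FPKM in LP, 1 of 5 tested genes, and its call was lost without either DP library. Neither count is read as a result about its list. Over all tested loci, 8% (DP against LP) and 10.8% (DP against W) were called.

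Senescence genes differed too in Raphanus. NAP, a NAC regulator of leaf senescence, rose to 84.4 and 59.8 FPKM in DP, against 0 and 0 FPKM in LP. It fell to 0 and 0 FPKM in LP, against 36.1 and 53.8 FPKM in W, a call lost in 5 of 11 alternatives, quantile and every-cell scaling among them. SAG21 fell to 84.4 and 59.9 FPKM in DP, against 491 and 688 FPKM in W. With the replicate number as a block, the calls of NAP, SAG21 and AT2G43590 in Raphanus were lost. In the marker lists, pollen genes fell in DP against W, 3 of 3 tested, the largest log2 differences being -6.48 for VGDH2 and -6.47 for PPME1. In that comparison 10.8% of all tested loci were called. Of 4 carpel markers 2 fell, SHP1 (-4.61) and AG. Of 6 petal identity genes 4 rose, PISTILLATA (gene symbol PI, log2 difference 2.93) and SEP1 (1.93) the most, and of 5 every-cell genes 2 rose, UBQ10 (2.47) and GAPC2 (1.69).

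The marker lists gave calls in other comparisons as well, and 38 of the 39 marker calls over all comparisons were lost or turned in at least 1 alternative, VGD1 in Raphanus DP against W being the exception. In Raphanus DP against LP, VGDH2, VGD1, AG and ACT2 were lower and PISTILLATA, SEP3 and UBQ10 higher, and in LP against W, VGD1 and SHP1 were lower. In Orychophragmus P against W, AP3 was higher and PISTILLATA lower, and in Malcolmia P against LP, UBQ10 was higher. In Matthiola against W, SEP3 was lower in DP and RB and AP1 in RB. The every-cell genes with the lowest differences there were ACT2 and ACT8 in DP, ACT2 and UBQ10 in LP, and EF1A and ACT2 in RB. With scaling to the every-cell genes, SEP3 and AP1 in RB against W turned to 0.32 and 0.51, neither called.

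In Iberis 0 of 5 tested members and 0% of all tested loci were called between PI and P, with 580 loci at an unadjusted p under 0.05. In Lobularia 0 of 3 tested members and 0% of all tested loci were called between P and W, with 374 loci at an unadjusted p under 0.05. The 95% interval of the PDF1.1 difference in Lobularia, -1.11 to 1.64 on the log2 scale, leaves room for more than a doubling or a halving. Leaving out a library leaves a form of these species with 1 library, and member calls from such fits are not read as results.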

How the data were processed

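Per the labels' protocols, directional libraries were made from poly(A) RNA of petals. The values are FPKM as deposited by the authors. Per the submitters' processing notes, TopHat, Cufflinks, Cuffdiff and DESeq were named, with versions and genome build not given in the sources used here. How reads of each species were assigned to Arabidopsis loci is not given either, so species were never fitted together.

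Members and gene lists (139 further loci) were chosen with earlier results of these data known. Within each of 7 species, log2(FPKM + 1) was modelled in limma 3.58.1 under R 4.3.3, trend included. All forms of a species entered 1 fit, restricted to loci averaging 1 FPKM or more in any form. There were 19 comparisons, adjusted by Benjamini-Hochberg over all tested loci. Adding 1 FPKM understates changes of low loci. The fit was tested on simulated data in which only loci above the median level were changed. That test does not cover genes undetected in whole forms, such as OSM34 in Matthiola. Of every other list, the rule names the called genes with up to 2 of the largest rises and 2 of the largest falls in each comparison, and for OSM34 the loci with the highest correlation, of which 2 are printed. DMR6, ICS1, NPR1 and SAG12 in Matthiola were named after their values were seen.

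Steps in low FPKM values gave the FPKM worth of 1 read, chosen after seeing the data: 6 of 6 low OSM34 values, 14 of 15 for PR4, 9 of 9 for PR5 and 4 of 5 for PDF1.1 lay within 0.15 of a whole read. The unit of each gene was set from its own lowest values, so these lie near whole reads by construction. The shares are thus no independent check of the read estimates. PDF1.1, at 80%, just met the share needed for use. PR1 and PDF1.2A were left out of this.

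Alternatives tried were quantile scaling, a pseudocount of 0.1, no low-value filter, no variance trend, the replicate number as a block, only the 2 compared forms, each library left out in turn and, chosen after seeing the data, scaling to the every-cell genes and Matthiola without form W.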

Additional observations from a re-analysis of the deposited data

How the results depend on the processing

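None of the 7 called member differences and none of the 24 called differences of the defence, water deficit and senescence lists changed sign under any alternative, but 6 of the 7 and 23 of the 24 lost their call in at least 1, the exceptions being OSM34 and SARD1 in Matthiola DP against W. Of 39 called differences of the marker lists, 8 changed sign, all in Matthiola with scaling to the every-cell genes: in DP against W, ACT8 (0.0068) and EF1A (0.064), in LP against W, EF1A (0.091), and in RB against W, GAPC2 (0.30), SEP3 (0.32), ACT8 (0.15), AP1 (0.51) and UBQ10 (0.21). Of 93 member differences that were not called, 21 changed sign under at least 1 alternative, 20 of them with a library left out. Counts of called members that moved were as follows. With a pseudocount of 0.1 there were 1 in Matthiola DP against W, 1 in DP against RB and 0 in LP against DP. With quantile scaling there was 1 in DP against W. Without a variance trend there were 0 in Orychophragmus, 1 in Matthiola DP against W, 0 in RB against W and 2 in LP against DP. With the replicate block there were 0 in LP against DP and 0 in DP against RB, and the block changed no other member count. Deviations of same-numbered libraries correlated between -0.05 and 0.374. The 0.374 is Erysimum O with Y, and all other form pairs were at most 0.0988, so the numbers were not taken as pairing the libraries. With only the 2 compared forms there were 0 in RB against W, 0 in LP against DP and 0 in DP against RB. With scaling to the every-cell genes, chosen after seeing the data, there were 2 in LP against DP, and without form W, also chosen then, 0 in LP against DP and 0 in DP against RB. Dropping the filter moved no member count. The cause of these changes was not tested.

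Leaving out each library in turn gave 0 to 2 called members in Raphanus DP against W and LP against W, 0 to 2 in Orychophragmus, 1 to 2 in Matthiola DP against W, 0 to 1 in LP against W, 1 to 2 in LP against DP, 0 to 2 in DP against RB, and 1 to 1 in RB against W, where PR4 took the place of PDF1.1 without W library a. It gave 0 to 1 in Malcolmia, Iberis and Lobularia, and in Erysimum 0 to 3 in P against B and P against O and 0 to 4 in P against Y. A form left with 1 library takes its spread from the other forms of the fit. The number of all tested loci called also moved in many of these fits, so the counts are not read as results about the members.

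Further limits are 2 libraries per form, the unknown true depth and the near-identical defensin copies. Libraries also differed in make-up. A single locus stood at 1.43e+06 FPKM in Matthiola W library b, and organelle loci held 65.1% of the summed FPKM in Lobularia P library 2. The part of this in the comparisons was not tested. Several added calls above rest on a single estimated read in 1 library.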
